A study of Mus musculus with 4 samples.

Results

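The clustered histone genes are the genes of the mouse histone clusters whose symbols begin with Hist1h, Hist2h, Hist3h or Hist4h, with pseudogene symbols (ending in ps) left out. GENCODE still types 2 of those kept, Hist1h2aj and Hist1h2al, as pseudogenes. They number 69 of the 54446 genes with a mouse Ensembl ID in the deposited count table: 6 of class H1, 20 of H2a, 18 of H2b, 12 of H3 and 13 of H4. On GRCm38, 56 of them lie on chromosome 13, 10 on chromosome 3, 2 on chromosome 11 and 1 on chromosome 6. They were followed across 4 RNA-seq libraries of cultured tongue-derived epithelial cells from C57BL/6 mice. Controls 1 and 2 are wild type, and the other 2 libraries carry a label of systemic Otub2 knockout (Otub2 is a deubiquitinating enzyme). Medium (RPMI-1640 with 10% serum) and TRIzol extraction were common to both genotypes, and the labels give no age, deleted exon or number of animals. The count columns of the libraries labelled knockout 3 and 4 are headed OE rather than KO, and the sample labels were followed.

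Clustered histone genes supply the bulk of linker histone (H1) and core histones (H2A, H2B, H3, H4) that package newly replicated DNA. Their mRNAs are made mainly in S phase and end in a conserved stem-loop, bound by the stem-loop binding protein, in place of a poly(A) tail. Some of these genes also give longer polyadenylated mRNAs from signals downstream of the stem-loop, a form described in differentiating and non-dividing cells. In tongue epithelium, the dividing cells lie in the basal layers.

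The structure of these transcripts decides which RNA a library can hold, so the ends of the gene models were read first. In GENCODE M21 (GRCm38), 44 of the 69 models held a match to the stem-loop consensus (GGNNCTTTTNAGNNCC, 16 bases on the gene's strand), in 6 distinct sequences, of which 1 was shared by 26 genes. The model ended within 100 bases of the stem-loop in 22 genes and ran on for 100 bases or more in 22, while 25 had no match. The sequences below are the stem-loop regions of genes above both controls in both libraries labelled knockout (Hist1h1c, Hist1h4j, Hist1h2bg). Those of abundant H2a and H4 genes are given for comparison. Capitals mark the stem-loop match, and each sequence is given 5′ to 3′ on the gene's strand.
Hist1h1c, chr13:23739506-23739533, plus strand: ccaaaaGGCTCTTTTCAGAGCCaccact
Hist1h4j, chr13:21735431-21735458, plus strand: cctaaaGGTCCTTTTCAGGACCaccaca
Hist1h2bg, chr13:23571837-23571864, plus strand: cccaaaGGCTCTTTTCAGAGCCacccat
Hist1h2ao, chr13:21810892-21810919, plus strand: aaaaaaGGCTCTTTTCAGAGCCatccac
Hist1h2ap, chr13:21833026-21833050, minus strand: aaaaaaGGCTCTTTTCAGAGCCatc
Hist1h4i, chr13:22040960-22040987, minus strand: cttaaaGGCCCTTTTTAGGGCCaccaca
The Hist1h1c model ran 840 bases past its stem-loop, Hist1h4j 385, Hist1h4i 330 and Hist1h2bg 155, whereas Hist1h2ao ran 31 bases past it and Hist1h2ap 3.

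A poly(A) signal (AATAAA or ATTAAA) lay in the last 40 bases of 17 models. A few of these ends are shown for genes described below, with the signal in capitals.
Hist1h1c, chr13:23740336-23740365, plus strand: gcttctAATAAAaagcgtttagttttcatt
Hist1h4j, chr13:21735821-21735837, plus strand: attctgAATAAAactgc
Hist2h2be, chr3:96223711-96223738, plus strand: attattAATAAAgttaccgattagtttc
Whether RNA was selected by its poly(A) tail is not given in the sources used here. Levels are given in CPM (counts scaled to a common library size, corrected by TMM factors). In a list of 16 structural RNAs without a tail, the summed level was 9.87 and 9.89 CPM in the controls. It was 15.5 and 6.68 CPM in the libraries labelled knockout 3 and 4, and 5 of the 16 were at 0 in every library. Scarna2 made most of the sum in the library labelled knockout 3, at 10.13 CPM there against 1.307 to 1.758 CPM elsewhere. Rn7sk was at 5.738 and 5.713 CPM in the controls, against 3.003 and 3.145 CPM in the libraries labelled knockout 3 and 4. Of the 16, 1 lay above both controls in both libraries labelled knockout and 3 lay below (26.9% and 33.1% of all genes tested). Besides Rn7sk, these positions rest on very few counts. Over Controls 1 and 2 and the libraries labelled knockout 3 and 4, Rnu12, which lay above, had 3, 2, 4 and 8. Below lay Rny3, with 5, 4, 2 and 0, and Vaultrc5, with 5, 9, 5 and 5.

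The controls held 12185345 and 11548186 gene counts, against 22719550 and 18911259 in the libraries labelled knockout 3 and 4. Equal raw counts below are therefore a lower share of gene counts in the latter. On the CPM scale they are a lower level in the library labelled knockout 4 and nearly the same level in the library labelled knockout 3. Otub2 itself stood at 27.5 and 26.9 CPM in the controls, against 19.0 and 23.9 CPM in the libraries labelled knockout 3 and 4 (log2 fold change -0.34, edgeR adjusted p = 0.485), so both of these lay below both controls without passing the test. Markers of stratified epithelium (8 of 8 detected) summed to 55140 and 49740 CPM in the controls, then 27670 and 38960 CPM. Krt4, Krt13, Krt14 and Krt6a were below both controls in both libraries labelled knockout. The other 4 (Krt5, Trp63, Cdh1 and Dsg3) were above both controls in the library labelled knockout 4. The library labelled knockout 3 stood apart: 5 salivary gland markers summed to 381600 CPM there against 3.15 to 25.1 CPM elsewhere, with Mucl2 nearly the whole sum and Smr3a at 0 there. In the same library 5 cardiac markers summed to 16200 CPM against 26.3 to 43.8 CPM elsewhere. Fibroblast markers (4 of 4 detected) summed to 112 and 141 CPM in the controls, against 406 and 345 CPM in the libraries labelled knockout 3 and 4. Col1a1, Col1a2 and Col3a1 were above both controls in both of these libraries. Pdgfra was at 8.40 and 8.06 CPM in the controls, then 32.1 and 7.07 CPM, so the library labelled knockout 4 lay below both controls. The 5 leukocyte markers spanned 35.6 to 99.0 CPM and 4 germ cell markers 0.629 to 3.22 CPM. Results are therefore given for each library, and the part of other cells in them was not tested. In bulk RNA, fewer cells of a type and less RNA per cell cannot be told apart.

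All 69 genes together took a very small part of the RNA counted. Their summed count was 1336 and 1370 in the controls, against 2814 and 5028 in the libraries labelled knockout 3 and 4. As a share of gene counts this was 0.0110% and 0.0119% in the controls, against 0.0124% and 0.0266% in the others. On the scaled library size, which corrects for the share taken by the most abundant genes, the sums were 93.5, 100.3, 196.5 and 243.3 CPM in that order. On this scale the 2 controls were the lowest, while by share of counts the library labelled knockout 3 was only slightly above them. At least 10 counts were seen for 28 genes in each control, 21 in the library labelled knockout 3 and 47 in the library labelled knockout 4. Counts were 0 in every library for 6 genes (Hist2h2aa1, Hist2h2aa2, Hist2h2ab, Hist2h2bb, Hist2h3b and Hist2h3c1), each overlapping another gene model. There were 13 genes with fewer than 10 counts in the 4 libraries together.

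The 5 classes did not move as one. Summed H1 was 25.1 and 31.8 CPM in the controls, against 95.1 and 109.9 CPM in the libraries labelled knockout 3 and 4. Summed H2b was 28.1 and 26.7 CPM in the controls, against 74.4 and 57.1 CPM in the others. For both classes the groups did not overlap. The H2a, H3 and H4 sums split the libraries labelled knockout to either side of the controls. H2a summed to 15.8 and 18.6 CPM in the controls, 11.4 CPM in the library labelled knockout 3 and 39.0 CPM in the library labelled knockout 4. H3 summed to 8.54 and 8.72 CPM in the controls, then 5.94 and 14.4 CPM. H4 summed to 15.96 and 14.5 CPM in the controls, then 9.71 and 22.99 CPM. No test was made of these sums, since 2 libraries against 2 cannot give an exact two-sided permutation p below 0.333.

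**Figure D1:**
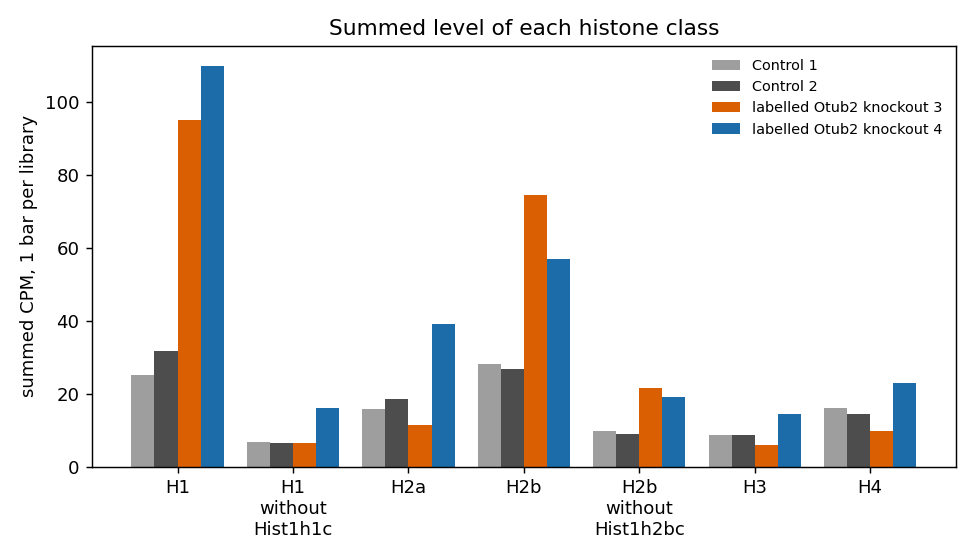
Summed CPM of each histone class, with 1 bar per library, and the H1 and H2b classes again without their most abundant gene. H1 and H2b are higher in both libraries labelled Otub2 knockout, while H2a, H3 and H4 are lower in 3 and higher in 4 than in both controls.

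Each of the H1 and H2b sums was led by 1 gene. Without Hist1h1c, H1 summed to 6.79, 6.37, 6.43 and 16.1 CPM, so the library labelled knockout 3 then lay between the controls. Without Hist1h2bc, H2b summed to 9.66 and 8.94 CPM in the controls, against 21.7 and 19.2 CPM in the others, with the groups still apart. With Hist1h2be, Hist2h2be and Hist1h2bg, described below, left out too, the other 14 H2b genes summed to 6.16 and 5.20 CPM in the controls. They then summed to 3.49 and 10.7 CPM, a split to either side of the controls like that of H2a, H3 and H4. With only Hist1h1c and Hist1h2bc left out, the other 67 genes summed to 56.7 and 57.1 CPM in the controls, 55.1 CPM in the library labelled knockout 3 and 112 CPM in the library labelled knockout 4.

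Of the 69 genes, 38 passed the filter on low counts and 31 did not. In edgeR's quasi-likelihood test with Benjamini-Hochberg adjustment over 21916 genes, 0 of the 38 were called higher or lower, as were 0 of all genes tested (0.0% in each direction). At an unadjusted p under 0.05, 6 of the 38 were higher (15.8%, against 9.42% of all genes tested) and 0 were lower (15.2% of all genes tested). Of the 6, Hist1h2bg and Hist1h4j passed the filter only through the libraries labelled knockout, where they are high, so their count and p support nothing. Of the other 36 tested, 4 were higher and 0 lower. DESeq2 called 2 of the 38 higher, Hist1h1c and Hist1h2bc (3.56% of all genes tested), and 0 lower (1.18%), whereas limma-voom called 0. Many of the 38, among them Hist1h2bg, Hist1h4j and Hist1h4c, were given no adjusted p by DESeq2 and could not be called by it. The 6 genes are Hist1h1c, Hist1h2bc, Hist1h2be, Hist1h2bg, Hist2h2be and Hist1h4j. The same 6 were the tested members that lay above both controls in both libraries under each of 6 ways of scaling the libraries.

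Hist1h1c (ENSMUSG00000036181, chr13:23738808-23740367, plus strand, 1 exon) encodes a linker histone, the H1.2 subtype, which binds DNA between nucleosomes. Its counts were 262 and 347 in the controls, against 1270 and 1939 in the libraries labelled knockout 3 and 4. Its levels were 18.3, 25.4, 88.7 and 93.8 CPM in that order. Both libraries labelled knockout lay above both controls. They were close to each other on this scale but not in the deposited FPKM given below. The log2 fold change was 2.06 with a standard error of 0.29 and a 95% interval of 1.33 to 2.79 (edgeR adjusted p = 0.166, DESeq2 adjusted p = 0.000102). Over all alternatives, among them fits to a lone library, its adjusted p ranged from 1.2e-13 to 0.832. Of its 50-base windows, 91.5% occur nowhere else in the annotated transcripts.

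The promoter of Hist1h1c is shown because H1 genes carry a sequence of their own, the H1 box AAACACA, beside the CCAAT box found in many histone promoters. The window is the 250 bases before the RefSeq start (GRCm38.p6, chr13:23738557-23738806, plus strand), with both motifs in capitals.
Hist1h1c promoter: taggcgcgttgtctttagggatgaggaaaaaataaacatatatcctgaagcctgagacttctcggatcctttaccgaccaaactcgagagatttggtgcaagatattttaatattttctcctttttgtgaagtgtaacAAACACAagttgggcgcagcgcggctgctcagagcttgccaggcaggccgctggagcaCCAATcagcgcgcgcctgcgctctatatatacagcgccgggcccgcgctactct
Searched on both strands, the H1 box was present in 5 of 6 H1 promoters (83.3%) and in 6.25% of 32851 RefSeq promoter windows of the same length. CCAAT was present in 6 of 6 H1 promoters and in 33.8% of all windows.

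Of the other H1 genes, Hist1h1d (the H1.3 subtype) had 36 and 36 counts in Controls 1 and 2, against 34 and 129 in the libraries labelled knockout 3 and 4. Hist1h1e (H1.4) had 36 and 28, then 41 and 84 counts. Hist1h1b (H1.5) had 14 and 11, then 9 and 75 counts. For these replication-linked subtypes the library labelled knockout 4 was the high one, and the library labelled knockout 3 stayed near the controls. Their log2 fold changes were 0.74, 0.60 and 1.27, with edgeR adjusted p of 0.458, 0.444 and 0.384. Hist1h1t, the testis-specific linker histone, had 5, 3, 3 and 4 counts.

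Of the 6 genes, 4 are of class H2b, one of the pair of histones that flank the H3-H4 tetramer in the nucleosome. Hist1h2bc (chr13:23684199-23692908, plus strand, 2 exons) had 264 and 243 counts in Controls 1 and 2, against 755 and 783 in the libraries labelled knockout 3 and 4, or 18.5, 17.8, 52.7 and 37.9 CPM. The groups did not overlap, and the controls were nearly equal. Its log2 fold change was 1.32 with a standard error of 0.31 (edgeR adjusted p = 0.166, DESeq2 adjusted p = 0.0256, with a range of 1.97e-07 to 0.832 over the alternatives). It has no stem-loop match in its model.

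Hist2h2be (chr3:96221119-96223738, plus strand, 1 exon) had 26 and 25 counts in Controls 1 and 2, against 115 and 80 in the libraries labelled knockout 3 and 4, or 1.82, 1.83, 8.03 and 3.87 CPM. Hist1h2be (chr13:23583670-23621124, minus strand, at most 2 exons) had 20 and 21, then 130 and 52 counts, or 1.40, 1.54, 9.08 and 2.52 CPM. In both genes the library labelled knockout 3 was the highest, and the library labelled knockout 4 lay between it and the controls. The log2 fold changes were 1.70 for Hist2h2be and 1.97 for Hist1h2be, with standard errors of 0.57 and 0.75 and edgeR adjusted p of 0.18 and 0.198. Every 50-base window of Hist2h2be is unique. The model of Hist1h2be overlaps that of Hist1h1e on the same strand, so its counts are uncertain.

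Hist1h2bg (chr13:23571396-23572013, plus strand, 1 exon) had 4 and 5 counts in Controls 1 and 2, against 15 and 43 in the libraries labelled knockout 3 and 4, or 0.28, 0.37, 1.05 and 2.08 CPM. Here the library labelled knockout 4 was the highest. The log2 fold change was 2.27 with a standard error of 0.59 (edgeR adjusted p = 0.166), from counts this small. Hist1h2bj, an H2b gene whose model ends 23 bases past its stem-loop, had 32 and 16 counts in the controls, 10 in the library labelled knockout 3 and 76 in the library labelled knockout 4. Hist1h2bh had 11 and 17, then 7 and 20 counts (log2 fold change -0.43, edgeR adjusted p = 0.623). The testis-specific Hist1h2ba had 1, 1, 2 and 0 counts.

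The remaining gene of the 6, Hist1h4j (chr13:21735064-21735837, plus strand, 1 exon), encodes histone H4. It had 5 and 5 counts in Controls 1 and 2, against 25 and 32 in the libraries labelled knockout 3 and 4, or 0.35, 0.37, 1.75 and 1.55 CPM. The groups did not overlap, and the log2 fold change was 2.17 with a standard error of 0.46 (edgeR adjusted p = 0.166). All H4 genes encode the same protein. Hist2h4 was the other H4 gene with both libraries above both controls, at 8 and 10, then 19 and 16 counts. Hist1h4i, the H4 gene with the most counts, had 111 and 87 in the controls, 48 in the library labelled knockout 3 and 222 in the library labelled knockout 4. Hist1h4d had 26 and 15, then 9 and 41 counts, and Hist1h4c had 17 and 20, then 1 and 25. In Hist1h4i, Hist1h4d and Hist1h4c the library labelled knockout 3 was the lowest, and the log2 fold changes of these 3 genes over both libraries were 0.00, -0.14 and -0.97 (edgeR adjusted p of 0.999, 0.907 and 0.543).

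**Figure D2:**
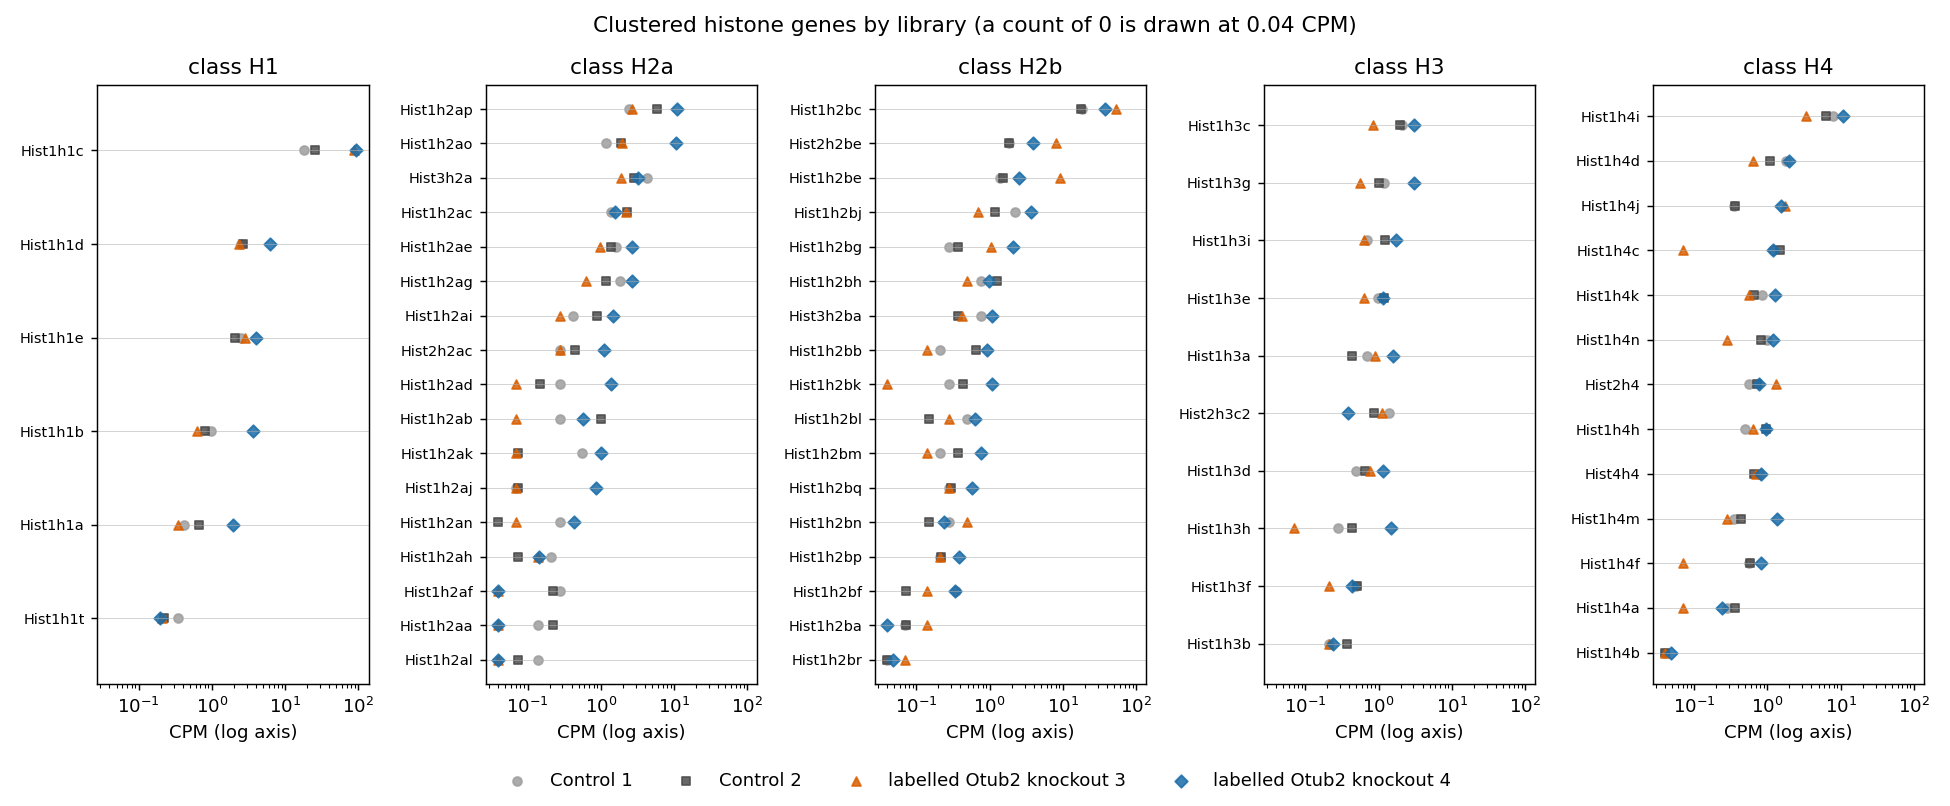
Level of the 63 clustered histone genes with a count in any library, by class, in CPM on a log axis, with 1 point per library and a count of 0 drawn at 0.04 CPM. Hist1h1c, Hist1h2bc, Hist2h2be and Hist1h2be show both libraries labelled Otub2 knockout to the right of both controls, and in 26 of the 69 genes the library labelled knockout 3 is to the left of both controls and the library labelled knockout 4 to the right.

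The 6 genes made up 43.5% and 47.2% of all clustered histone counts in the controls, against 82.1% and 58.3% in the libraries labelled knockout 3 and 4. Together they summed to 40.7, 47.3, 161.3 and 141.7 CPM in that order. The other 63 genes summed to 52.8 and 53.0 CPM in the controls, 35.2 CPM in the library labelled knockout 3 and 101.6 CPM in the library labelled knockout 4. The 6 were picked by their values, so these sums describe them and test nothing. Their models have a median length of 1358 bases against 667 for the other 32 tested genes, and 4 of 6 carry a poly(A) signal near the end against 7 of 32. The model ends at the stem-loop in 0 of the 6 and in 10 of the other 32. Summed fibroblast markers were also higher and summed stratified epithelium markers lower in both libraries labelled knockout (values above). By gene, 4 of the 8 epithelium markers lay above both controls in the library labelled knockout 4, and the fibroblast marker Pdgfra lay below both there. The part of both cell types in these 6 genes was not tested.

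H2a genes with the most counts showed another pattern. Hist1h2ao had 17 and 26 counts in the controls, 28 in the library labelled knockout 3 and 221 in the library labelled knockout 4. Hist1h2ap had 35 and 79, then 38 and 230 counts. For both, only the library labelled knockout 4 stood clearly above the controls. Their log2 fold changes were 2.03 and 0.75, with standard errors of 0.91 and 0.84 and edgeR adjusted p of 0.231 and 0.58. Only 6.5% and 6.93% of their 50-base windows are unique, so how reads were split between them and other H2a copies is uncertain. Hist3h2a, on chromosome 11 with a model running 1643 bases past its stem-loop, had 62 and 39, then 27 and 66 counts (log2 fold change -0.50, edgeR adjusted p = 0.565). The testis-specific Hist1h2aa had 2, 3, 0 and 0 counts.

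Of the 12 H3 genes, 4 had the library labelled knockout 3 below both controls and the library labelled knockout 4 above both, and 2 had both libraries above. Hist1h3c had 30 and 27 counts in the controls, 12 in the library labelled knockout 3 and 64 in the library labelled knockout 4. Hist1h3g had 17 and 14, then 8 and 63 counts. Hist1h3i had 10 and 17, then 9 and 36 counts, and Hist1h3e 14 and 16, then 9 and 24. In each the library labelled knockout 3 was the lowest. The library labelled knockout 4 was the highest on the CPM scale too, except for Hist1h3e, where its 1.16 CPM lay between the controls (0.98 and 1.17 CPM). Hist2h3c2, on chromosome 3, was the exception among the named H3 genes, with 20 and 12, then 16 and 8 counts. The log2 fold changes of these 5 genes lay between -0.64 and 0.72, and the smallest edgeR adjusted p among them was 0.541.

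Genes can be compared with each other only per transcript length. In the deposited FPKM (counts divided by the model's length and by the library's total count), Hist1h1c stood at 13.4 and 18.7 in the controls, against 35.4 and 65.1 in the libraries labelled knockout 3 and 4. Hist1h2bc stood at 18.2 and 17.7, then 28.4 and 35.5 FPKM. Both were the highest in the library labelled knockout 3, where Hist1h2ap was at 3.43, Hist1h4i at 2.87 and Hist1h2ao at 2.53 FPKM. In the library labelled knockout 4 the short H2a models came nearer, with Hist1h2ap at 25.0 and Hist1h2ao at 24.1 FPKM. In the controls, Hist1h2ap (5.79 and 13.8 FPKM) and Hist1h4i (12.2 and 10.1 FPKM) do not differ in order beyond the spread of the pair. FPKM is taken on the total count, and the 10 most abundant genes held 40.04% of gene counts in the library labelled knockout 3 against 8.12% to 12.4% in the others.

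Counted by position against the controls, 12 of the 69 genes had both libraries labelled knockout above both controls, and 6 had both below. Among the 38 that passed the filter, 11 were above (28.9%, against 26.9% of all genes tested) and 0 below (against 33.1%). With upper-quartile scaling these counts were 6 above and 6 below, and all genes tested were then 10.4% above and 48.5% below. With no scaling beyond library size they were 6 above and 2 below, with all genes at 9.17% and 43.0%. With TMM scaling the share above is near that of all genes. At least 2-fold above in both libraries were 5 of the 38, against 2.69% of all genes tested. These 5, like the 11 above, include Hist1h2bg and Hist1h4j, which passed the filter only through the libraries labelled knockout. The 11 also include Hist1h3a and Hist1h3d, which did not reach the filter's minimum in both controls and passed only with the library labelled knockout 4. Part of both counts was therefore fixed by the filter.

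The commonest arrangement was a split of the libraries labelled knockout. By itself, the library labelled knockout 3 lay above both controls in 11 of the 38 tested genes and below both in 21 (42.1% and 45.6% of all genes tested). Of the same 38, the library labelled knockout 4 lay above in 32 and below in 1 (41.8% and 47.1% of all genes tested). Over the 69 genes these counts were 14 and 38 for the first library and 45 and 8 for the second. In 26 of the 69 genes (37.7%), knockout 4 lay above both controls and knockout 3 below both. The same held in 17 of the 38 tested genes (44.7%), against 8.89% of all genes tested. Some of the 17, and of the 32 above, did not reach the filter's minimum in both controls and passed only with knockout 4, where they are high. Hist1h1a, at 6, 9, 5 and 40 counts, and Hist1h2bb, at 3, 9, 2 and 19, are among them. Part of the counts of 17 and 32 was therefore fixed by the filter. Some of the 26 lie below in knockout 3 only through the scaling of equal counts. Examples are Hist1h2aj, with 1 count in each control and in knockout 3, and Hist1h2bp, with 3 in each. The reverse arrangement was found in 1 of the 69 (Hist1h2ba, at 1, 1, 2 and 0 counts), against 10.6% of all genes tested. The count of 26 ranged from 21 to 31 over the 6 ways of scaling. By model, the split was seen in 12 of 22 genes whose model ends at the stem-loop, in 4 of 22 whose model runs on past it and in 10 of 25 with no match. The 22 genes ending at the stem-loop summed to 15.2 and 19.0 CPM in the controls, 10.2 CPM in the library labelled knockout 3 and 44.1 CPM in the library labelled knockout 4. The 22 that run on summed to 50.1 and 54.3 CPM, then 120.8 and 138.6 CPM. Hist1h1c alone made 36.6% and 46.8% of their counts in the controls, then 73.4% and 67.7%. The 25 with no match, led by Hist1h2bc, summed to 28.2 and 27.1 CPM, then 65.5 and 60.5 CPM. The part of the model end in these sums was not tested.

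**Figure D3:**
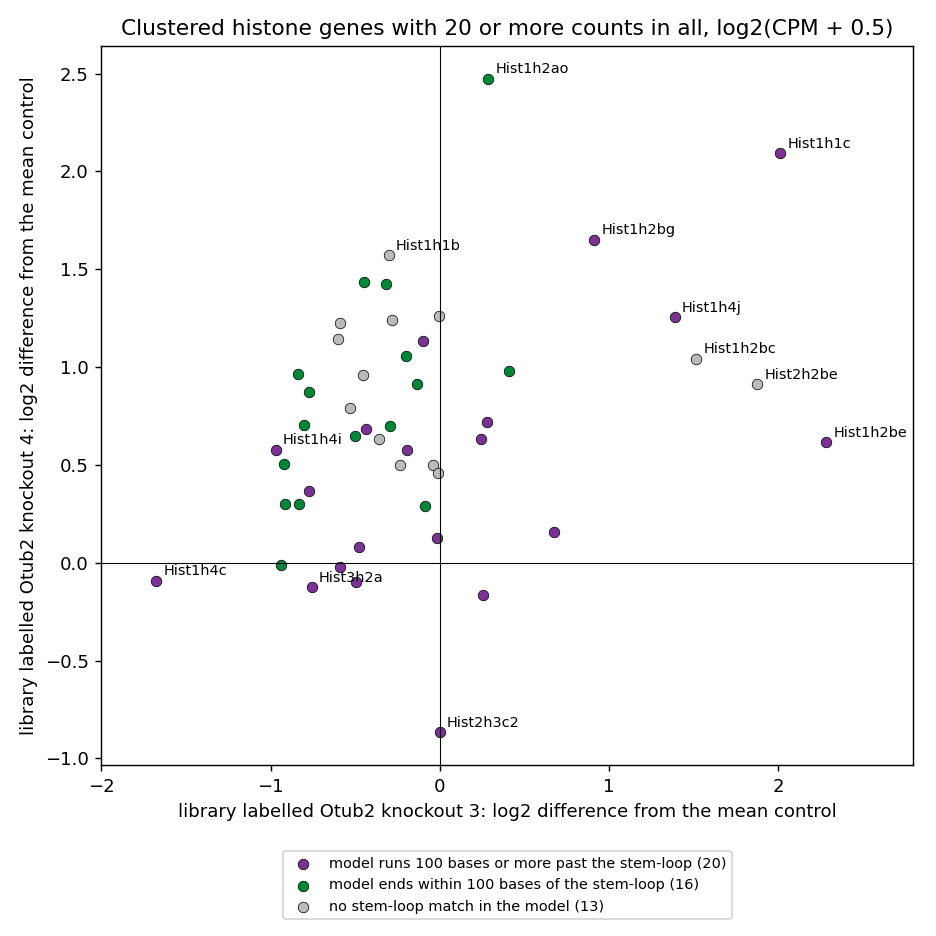
Difference of each library labelled Otub2 knockout from the mean of the controls, as log2(CPM + 0.5), for the 49 clustered histone genes with 20 or more counts in all, coloured by how the gene model ends. Most points lie in the upper left (lower in 3, higher in 4), and the 6 genes named above lie to the upper right.

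Fitted alone against both controls, on the assumption that a single library varies as the controls do, the libraries gave different calls. With the library labelled knockout 3, 33 genes were tested and 5 were higher (Hist1h1c, Hist1h2bc, Hist1h2be, Hist2h2be and Hist1h4j) against 22.4% of all genes. In that fit 4 were lower (Hist3h2a, Hist1h3c, Hist1h4c and Hist1h4i), against 12.7% of all genes. With the library labelled knockout 4, 46 were tested, 18 were higher (18.8% of all genes) and 0 lower (22.0%), but 14 of the 46 reached the filter's minimum in no control and had to be high to be tested. Without those 14, 11 of 32 were higher and 0 lower. Over the 38 genes of the fit over all libraries, the median log2 fold change with the library labelled knockout 4 was 0.88. Some of these 38, among them Hist1h1a, Hist1h2bg and Hist1h4j, also reached the minimum of that fit in no control. The median log2 fold change of the tested members was -0.51 in the first fit and 1.06 in the second, beside -0.10 and -0.14 over all genes tested. Over the 32 genes in each fit that reached the minimum in a control, the medians were -0.56 and 0.83. In the first fit, Hist1h4j was the gene that reached it in no control. Both fits share the same controls.

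Divergent neighbours allow a closer look, because many H2a and H2b genes lie back to back and share the stretch between their starts. There were 13 such H2a-H2b pairs, with 175 to 305 bases between the starts. Partners held the same position (above, below or between the controls) in 2 of 13 pairs in the library labelled knockout 3. In the library labelled knockout 4 they did so in 9 of 13, but there 45 of all 69 genes lay above both controls. Some positions rest on very few counts, such as 0, 0, 1 and 1 for Hist1h2br and 1, 1, 2 and 0 for Hist1h2ba. Pairs were not compared with unpaired genes, so these counts say nothing about shared promoters. In 3 of the pairs the H2b gene is among the 6 genes named above, and their shared promoters are printed with the octamer (ATTTGCAT, the site of the Oct factors in H2b promoters), CCAAT and TATAAA in capitals on either strand. Sequences run on the plus strand from the H2a side to the base before the H2b start (RefSeq, GRCm38.p6, cut at the GENCODE start of the H2b gene).
Hist1h2ac and Hist1h2bc, chr13:23683960-23684198: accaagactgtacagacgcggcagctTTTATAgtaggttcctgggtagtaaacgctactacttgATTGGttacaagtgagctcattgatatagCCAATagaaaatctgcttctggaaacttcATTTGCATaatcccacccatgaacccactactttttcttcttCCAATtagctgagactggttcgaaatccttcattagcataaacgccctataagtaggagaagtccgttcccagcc
Hist1h2ae and Hist1h2bg, chr13:23571221-23571395: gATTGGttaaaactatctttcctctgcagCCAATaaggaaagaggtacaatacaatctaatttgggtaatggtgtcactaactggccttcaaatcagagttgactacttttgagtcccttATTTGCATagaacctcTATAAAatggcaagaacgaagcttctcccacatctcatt
Hist2h2ac and Hist2h2be, chr3:96220881-96221118: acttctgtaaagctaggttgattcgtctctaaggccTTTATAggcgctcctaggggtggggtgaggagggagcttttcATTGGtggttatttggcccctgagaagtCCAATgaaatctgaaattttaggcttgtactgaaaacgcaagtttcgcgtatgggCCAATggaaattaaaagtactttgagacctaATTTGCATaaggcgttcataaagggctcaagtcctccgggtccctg
All of these stretches hold 1 octamer, at 117, 55 and 46 bases before the H2b start in the order printed.

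The partners of these promoters differed in level. Hist1h2ac had 20 and 31 counts in Controls 1 and 2, against 32 and 32 in the libraries labelled knockout 3 and 4 (log2 fold change 0.04, edgeR adjusted p = 0.966), while Hist1h2bc across the 250-base gap had 264, 243, 755 and 783. Hist1h2ae had 23 and 19, then 14 and 56 counts, beside 4, 5, 15 and 43 for Hist1h2bg. Hist2h2ac had 4 and 6, then 4 and 23 counts, beside 26, 25, 115 and 80 for Hist2h2be. In the library labelled knockout 3 the H2b partner was above both controls in all 3 pairs and the H2a partner in none. These pairs were picked because their H2b gene lay above both controls in both libraries, so the H2b side was fixed by that choice. The difference between partners was not tested.

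Over all promoters matched in RefSeq (62 of the 69 genes), the octamer was present in 13 (21.0%), against 1.6% of 32851 promoter windows. It was found in 7 of 18 H2a and 6 of 16 H2b promoters and in none of the H1, H3 or H4 promoters. CCAAT was present in 51 of 62 (82.3%, against 33.8%), including all H1, H2a and H2b promoters but 3 of 12 H4 promoters. TATAAA was present in 29 of 62 (46.8%, against 12.4%). A shared stretch counts for both partners where both promoters are listed.

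Genes around the histone pathway were read from lists for comparison. Variant histones lie outside the clusters, and most are polyadenylated and made outside S phase. Of 17 such genes 11 were tested, and 1 of them was higher and 1 lower at unadjusted p under 0.05 (9.42% and 15.2% of all genes tested). H1f0, the linker histone of differentiated cells, had 1404 and 1337 counts in Controls 1 and 2, against 2793 and 5609 in the libraries labelled knockout 3 and 4 (log2 fold change 1.25, edgeR adjusted p = 0.166). H2afj had 2850 and 1987, then 1420 and 1442 counts (log2 fold change -1.03, edgeR adjusted p = 0.172). In both libraries labelled knockout, H1f0 was above the controls and H2afj below them.

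Among 21 genes of histone gene transcription and histone mRNA processing, 20 were tested, with 0 called; at unadjusted p under 0.05, 2 were higher (9.42% of all genes tested) and 0 lower (15.2%), with a median log2 fold change of 0.44 beside 0.09 over all genes tested. Sympk, the scaffold of the cleavage complex, had 952 and 1017, then 1723 and 2772 counts (log2 fold change 0.85, edgeR adjusted p = 0.167). Hinfp, the transcription factor of H4 promoters, had 328 and 344, then 555 and 800 counts (log2 fold change 0.69, edgeR adjusted p = 0.202). Of 19 histone chaperones, all tested, 3 (Atrx, Supt16 and Rbbp4) had an unadjusted p under 0.05, each higher (9.42% of all genes tested), with 0 called and a median of 0.47. Supt16, a subunit of the FACT complex, had 647 and 877, then 1193 and 2594 counts (log2 fold change 0.93, edgeR adjusted p = 0.189).

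S phase genes, which include the DNA replication machinery, were high in the library labelled knockout 4. Their 23 genes summed to 479 and 585 CPM in the controls, 470 CPM in the library labelled knockout 3 and 1647 CPM in the library labelled knockout 4. Mcm2, a subunit of the replicative helicase, had 300 and 327, then 357 and 1953 counts (log2 fold change 1.41, edgeR adjusted p = 0.235). Pola1, the catalytic subunit of DNA polymerase alpha, had 139 and 201, then 312 and 891 counts (log2 fold change 1.41, edgeR adjusted p = 0.179). Over both libraries 0 of 23 were called, and only Pola1 (1 of 23) had an unadjusted p under 0.05. In the library labelled knockout 4 alone, 23 of 23 were higher, and 14 of 14 genes of G2 and M phase too, against 18.8% of all genes. In the library labelled knockout 3 alone, 1 of 23 S phase genes was higher (22.4% of all genes) and 2 were lower (12.7%). The list medians in the fits of the lone libraries were -0.25 and 1.62 for S phase and 0.10 and 1.76 for G2 and M phase.

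**Figure D4:**
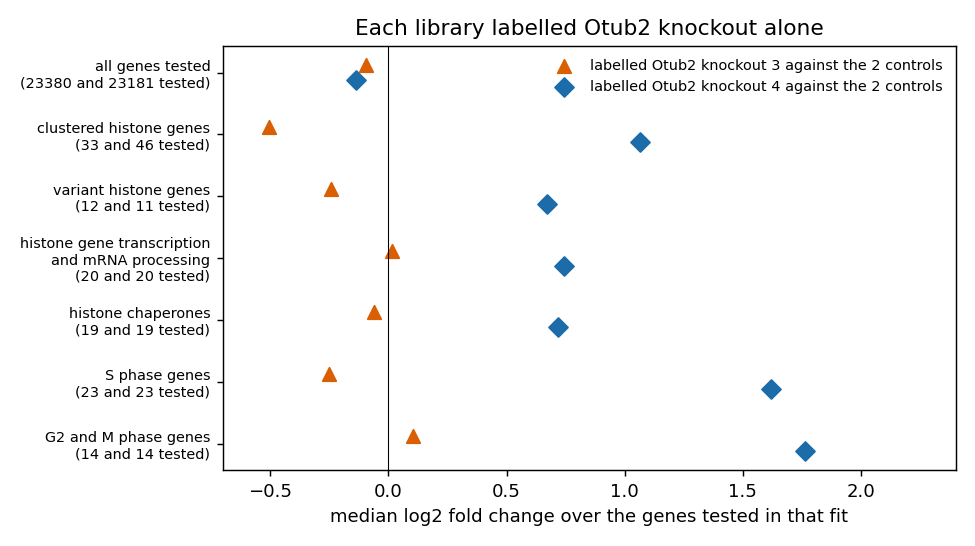
Median log2 fold change of each gene list when the library labelled Otub2 knockout 3 (triangles) or 4 (diamonds) alone is fitted against both controls, over the genes tested in that fit. The clustered histone genes include those that passed the filter through the lone library (14 of 46 for the library labelled knockout 4). For clustered histone genes the medians are -0.51 and 1.06, for S phase genes -0.25 and 1.62, and over all genes tested -0.10 and -0.14.

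Most clustered histone genes are rare, and rare genes had their own background. Of the 2983 tested genes with a mean of 1 to 2 CPM, both libraries labelled knockout lay above the controls in 277 and below in 1593, and 129 showed the split with knockout 4 above and knockout 3 below. Of the 3641 with a mean of 0.5 to 1 CPM, 109 lay above, 2531 below, and 127 showed the split. Of the 6022 at 10 to 50 CPM, 2846 lay above, 521 below and 731 showed the split. Sharing of reads sets a further limit, since 36 of the 69 genes have fewer than 50% unique windows and 26 overlap another gene model. Class sums do not depend on how counted reads were split within a class. They do depend on whether shared reads were counted, which the sources used here do not give. Hist2h2aa1, Hist2h2aa2, Hist2h2bb, Hist2h3b and Hist2h3c1 have no unique window and were at 0 in every library. Reads from these genes could therefore be missing from the H2a, H2b and H3 sums. Hist1h2be and Hist1h1e overlap on the same strand, so reads could also be split between the H2b and H1 sums.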

How the data were processed

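RNA was measured in 2 control libraries and 2 labelled Otub2 knockout. The authors deposited a raw read count per gene and library, per the file headers, and an FPKM value for each. HISAT2, DESeq and GRCh38 (a human build, though the IDs are of mouse genes) appear in the submitters' processing notes, without version or role. The sources used here do not give the strand setting, the treatment of multi-mapped reads or the RNA selection. For all 63 members with counts, the length implied by FPKM equals the GENCODE M21 model length. Features without an Ensembl ID (0.914% to 2.84% of counts) were left out.

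Counts were tested with edgeR 4.0.16 (R 4.3.3): filterByExpr, TMM, quasi-likelihood F-test, Benjamini-Hochberg at 0.05 over 21916 genes; standard errors come from the F statistic. CPM uses the TMM-scaled library size. DESeq2 1.42.0, limma-voom 3.58.1, other scalings, filters and leaving out each library were alternatives. Since no label ties a library to its own animal or culture, the p-values reflect only how these samples vary, and that variation may be technical. Named genes are the 4 per class with the most counts, for each direction the 5 of smallest p, up to 4 per comparison list by p, counts of 5 or fewer in full, and the testis-specific members; partner genes of the printed promoters and genes at 0 were added by position or value. Members and lists were chosen with earlier results of these data known. Promoters are RefSeq windows; those of Hist1h2bc and Hist2h2be were read from their H2a partner. Motifs were matched exactly.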

Additional observations from a re-analysis of the deposited data

How the results depend on the processing

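With 2 libraries a group, each result rests on few counts, and leaving out 1 library of those labelled knockout decides most of them. No paired analysis was possible because the replicate numbers 1 to 4 are not shared between the groups. The causes of the changes below were not tested. Members called higher numbered 0, but 2 with DESeq2 and 0 to 18 with 1 library left out (18 without knockout 3, 5 without knockout 4), and members called lower 0 to 4. Over all genes, 0 were called in each direction, against 37 higher and 1433 lower with library size only, 780 and 258 with DESeq2, 6 and 3 with no filter, and 0 to 5243 and 0 to 5097 with 1 library left out. Tested members above both controls numbered 11, with 6 under upper-quartile scaling, 6 under library size only, 7 under the scaling of genes at a mean of at least 5 CPM, and 11 to 33 with 1 library left out. Those below numbered 0, with 6, 2 and 5 under the same scalings and 1 to 21 with 1 library left out.

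The median log2 fold change of tested members, 0.40, was -0.06 under upper-quartile scaling and -0.51 to 1.06 with 1 library left out. Scaling moved the median log2 fold change of all genes tested from 0.09 to -0.38 (upper quartile), -0.35 (library size only) and 0.34 (features without an Ensembl ID kept). Relative to that median, the log2 fold change was 1.94 to 1.98 for Hist1h1c and 1.17 to 1.23 for Hist1h2bc over 6 ways of scaling. Scaling shifts all genes by nearly the same amount, so these narrow ranges follow from the method and say nothing about how stable the 2 genes are. The log2 ratio of summed CPM over all members, 1.18, was 0.71 (upper quartile), 0.69 (library size only) and 1.43 (features without an Ensembl ID kept). In the same order, for H1, 1.85, it was 1.39, 1.37 and 2.11, and for H2b, 1.25, it was 0.78, 0.76 and 1.504. With 1 library left out the ratio spanned 1.02 to 1.36 for all members, 1.69 to 2.05 for H1, -0.59 to 1.22 for H2a, 1.08 to 1.44 for H2b, -0.54 to 0.76 for H3 and -0.65 to 0.62 for H4.

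Several single genes changed sign. Hist1h2ac, 0.04, was -0.42 under upper-quartile scaling and -0.46 under library size only. Hist1h2bj was -0.086 under upper-quartile scaling, and Hist1h3i -0.14 and, under library size only, -0.005. Hist1h3c, -0.04, was 0.037 with DESeq2 size factors, 0.003 without the 10 most abundant genes, 0.033 with DESeq2, 0.11 with no filter and 0.23 with features without an ID kept. Hist1h4i, -0.001, was 0.072, 0.035, 0.072, 0.15 and 0.27 under the same settings. With features without an ID kept, Hist1h3e was 0.021 and Hist1h4d 0.13, and with no filter Hist1h4d was 0.008. With 1 library left out, the span was -0.12 to 1.30 for Hist1h1d, -0.51 to 2.04 for Hist1h1b, -0.63 to 1.54 for Hist1h2ap, -0.26 to 0.45 for Hist1h2ac, -1.29 to 1.13 for Hist1h2bj, -1.28 to 0.63 for Hist1h3c, -0.98 to 1.48 for Hist1h3g, -0.62 to 0.87 for Hist1h3i, -0.77 to 0.14 for Hist1h3e, -1.08 to 0.63 for Hist1h4i and -1.21 to 0.46 for Hist1h4d. The 6 genes with the smallest p stayed positive in every alternative that tested them, with edgeR, DESeq2 or voom adjusted p up to 0.832, and down to 1.2e-13 for Hist1h1c without knockout 3.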
